A study of Mus musculus with 3 samples.

Results

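The 45 genes described here encode the working parts of the lysosome: enzymes that break down sugars, lipids, sulfated glycans and proteins, membrane proteins, subunits of the proton pump that acidifies the organelle, proteins that sort enzymes to it, and the transcription factors of the MiT family. They were chosen by symbol, and each symbol was matched to its gene identifier through the names in the second transcript table. All 45 were found among 55536 annotated genes. The libraries hold nuclear RNA, freed of ribosomal RNA, of macrophages, phagocytic cells derived in culture from the bone marrow of C57BL/6J mice. Treatment lasted 15 min and was with Lipid A, the lipid anchor of bacterial lipopolysaccharide and a ligand of the receptor Tlr4, at 100 ng/ml. There is 1 group of 3 biological replicates and no untreated sample among those analysed here, so no value below is a change caused by Lipid A. Replicates 1 and 3 were made from 1 µg of RNA and replicate 2 from 500 ng. The labels record separate biosamples but 1 donor entry, with age and sex not collected, and the spread between replicates may therefore be technical.

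Lysosomes are acidic compartments in which material taken up from outside and worn-out cell parts are degraded. Most of their soluble enzymes receive a mannose 6-phosphate tag in the Golgi and are carried onward by receptors for that tag, while a rotary proton pump keeps the lumen acidic enough for them to act. The MiT factors Tfeb, Tfe3 and Mitf bind a short promoter element called CLEAR, built around the letters CACGTG, and are known for switching on many lysosomal genes together. Macrophages depend on this machinery to digest engulfed microbes and dying cells.

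The lysosomal genes stood high in the nuclear RNA. Psap, the precursor of the saposins that present sphingolipids to hydrolases, was at 2474, 4364 and 4151 TPM (a transcript level corrected for gene length and library total) in replicates 1, 2 and 3. Gpnmb, a transmembrane glycoprotein of phagosomes and lysosomes, was at 2200, 2850 and 2347 TPM in the same order, which is kept below. Both exceeded every other member in every library. All 45 were measured, which here means 10 or more expected counts on average, and the lowest, Smpd1, had a mean of 276 counts. By mean TPM, 41 stood at 10 or more, 17 at 100 or more and 2 at 1000 or more. The median member was at 46.9, 81.0 and 54.3 TPM, against 7.28, 7.34 and 5.46 TPM for the median of 11960 measured protein-coding genes. The difference was 3.13 ± 0.41 on the log2(TPM + 0.1) scale (mean ± SD, n = 3, as in every ± below), or 8.78-fold. Of the members, 42 lay above the median measured protein-coding gene and 27 in its upper 10%. Arsb, Ids and Smpd1 lay below that median.

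In order of mean TPM the first 5 were Psap, Gpnmb, Grn, Lgmn and Tcirg1, and these were the first 5 in each library. Of 44 neighbouring pairs in that order, 12 kept their order in all 3 libraries, and the same number lay further apart than 1 SD of their difference. Those included each step from Psap down to Lipa, and the steps from Sgsh to Tfeb and from Tfeb to Arsa. Of those 12, 8 kept their order by mean level in the second transcript table (a comparison added after seeing the data), and the steps from Lgmn to Tcirg1, Hexa to Atp6v0c, Npc1 to Cln3 and Sgsh to Tfeb were turned round. Most neighbours in the middle of the order, such as Lipa and Hexa or Lamp2 and Atp6ap1, did not differ beyond their spread. The members together held 2.91, 3.59 and 4.11% of the expected counts of annotated genes, and Psap and Gpnmb held 61.2 ± 2.44% of that.

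**Figure D1:**
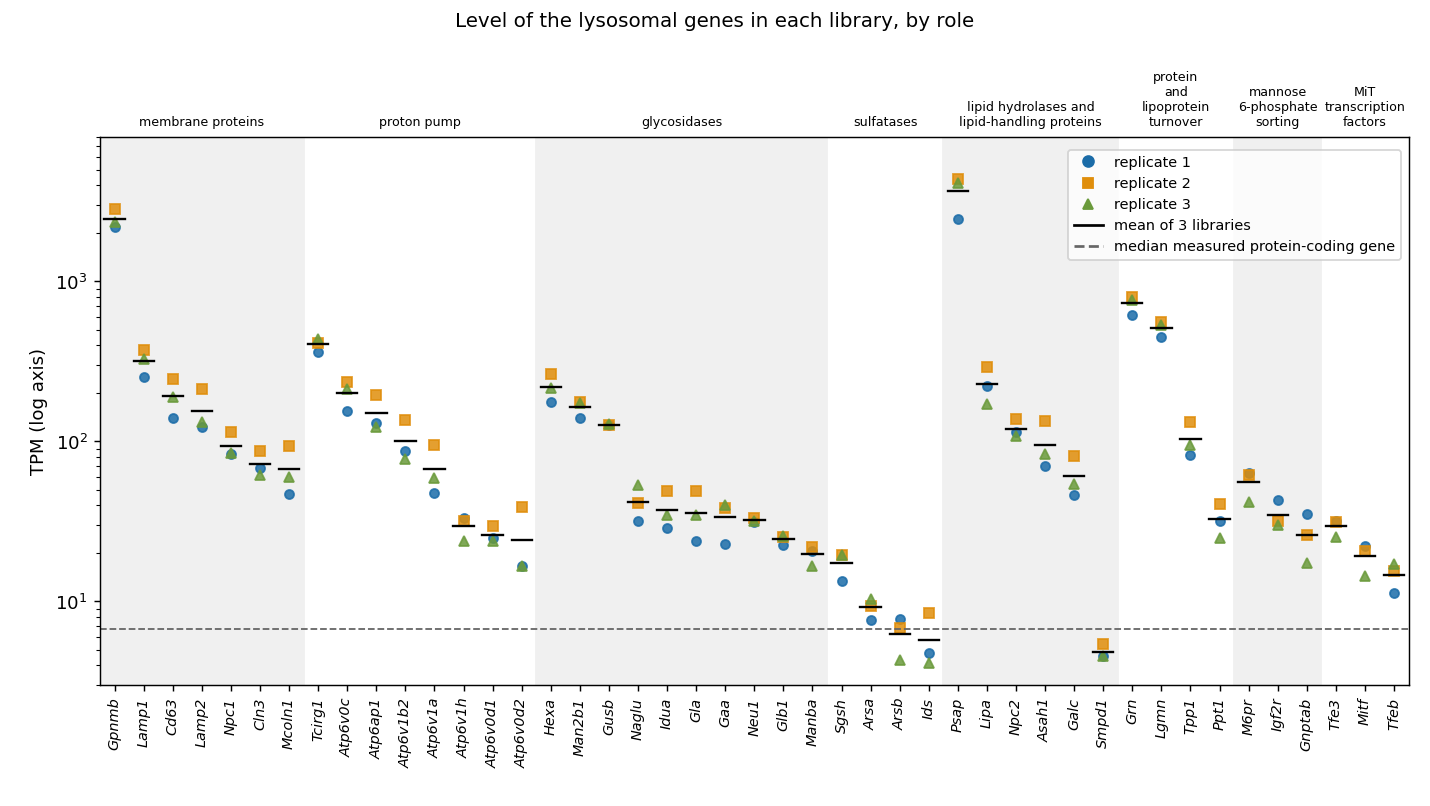
TPM on a log axis of each lysosomal gene, grouped by role and ordered by mean level within a group. Symbols are the 3 libraries, the short black line is their mean and the dashed line is the median measured protein-coding gene (6.70 TPM). Psap and Gpnmb stand above 2000 TPM in every library, and Smpd1, Ids and Arsb have means below the dashed line.

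Facts of the libraries that bear on these values are few. Annotated genes held 18516063, 17345644 and 20947006 expected counts, so that the deposited credibility interval of TPM had a median half-width of 4.56% of the value over all members and libraries, the widest being Tfeb in replicate 1 at 20.9%. Protein-coding genes took 27.5, 35.6 and 21.3% of all TPM, so a TPM moves with the non-coding RNA of its library. Levels of different genes are therefore compared as TPM within a library, and libraries are compared on CPM (counts scaled by the library total) adjusted with TMM factors. The macrophage markers Csf1r, Adgre1, Itgam, Fcgr1, Mertk, Cd14 and Spi1 were all measured, with a summed level of 931 to 1161 TPM. None of the melanocyte, B cell, neutrophil or erythroid markers examined reached a mean count of 10. Of 8 osteoclast markers 4 were measured, with a summed level over all 8 of 16.6 to 23.5 TPM, most of it from Nfatc1 at 12.2 TPM, while Calcr and Ocstamp were listed at 0. Of 5 T cell markers 1 was measured, Cd4, at 11.9, 31.3 and 20.9 TPM, while Cd3e was listed at 0. Of 4 dendritic cell markers 3 were measured, with a summed level of 1.05 to 2.38 TPM, and of 5 fibroblast markers 1, with a summed level of 0.09 to 0.28 TPM. Their part in the levels of the lysosomal genes was not tested. In bulk RNA, fewer cells of a type and less RNA per cell cannot be told apart.

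The promoters of some members hold the core of the CLEAR element. The RefSeq promoter table (build GRCm38.p6, 250 bases before to 50 after each start) held 39 of the 45 genes. CACGTG, searched on both strands, was in 13 of the 39, against 8.09% of 27025 genes. The longer TCACGTGA, which contains it, was in 6, against 1.12%, and GTCACGTG, which also contains it, was in 11, against 2.55%. A match is a description of letters, not of binding. The 11 with GTCACGTG cover all but 2 of the 8 role groups, and 1 site of each is printed here with 11 bases on either side and the 8 letters in capitals, because they are the sequences these genes share.
Lamp1, chr8:13159133-13159140, minus strand: cacgtgatgtgGTCACGTGccagtcggcat
Mcoln1, chr8:3500446-3500453, plus strand: gggtcgcgcttGTCACGTGttcagttcagg
Cln3, chr7:126583352-126583359, minus strand: tcacgggtactGTCACGTGacccccaacct
Atp6v0d1, chr8:105566062-105566069, minus strand: gccctactgcgGTCACGTGagacgcggtgc
Gla, chrX:134601194-134601201, minus strand: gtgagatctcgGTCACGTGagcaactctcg
Glb1, chr9:114401028-114401035, plus strand: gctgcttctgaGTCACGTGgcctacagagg
Naglu, chr11:101070019-101070026, plus strand: ccaaccttcagGTCACGTGgcccgaggtcg
Arsa, chr15:89477435-89477442, minus strand: ttcaactcagtGTCACGTGttgtctgctcc
Sgsh, chr11:119355532-119355539, plus strand: cgctccccacgGTCACGTGcacggcaggcc
Lgmn, chr12:102439136-102439143, minus strand: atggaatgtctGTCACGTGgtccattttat
Igf2r, chr17:12769708-12769715, minus strand: ggccgactcagGTCACGTGacgctccgggg
In Cln3 and Igf2r the site is followed by ac, so that the same 10 letters read alike on both strands. Mcoln1 and Igf2r each hold another site in the window. Counted from the RefSeq start, with bases before it negative, the sites began at -123 in Cln3, at -196 in Gla and at -5 in Atp6v0d1. The GENCODE M21 start can differ: Cln3 spans chr7:126571207-126585817 there, so its site lies inside that gene. The members with GTCACGTG had a median mean level of 36.0 TPM and the 28 matched members without it 85.2 TPM. Those with it ranged from Arsa at 9.17 TPM to Lgmn at 515 TPM, and a relation of the letters to level was not tested.

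Among the 7 membrane proteins, Gpnmb stood at 2466 ± 341 TPM and the other members between 67.0 and 318 TPM. Lamp1, a heavily glycosylated protein that lines the inner face of the lysosomal membrane, was at 253, 374 and 328 TPM. Its relative Lamp2, a form of which serves chaperone-mediated autophagy, was at 123, 214 and 132 TPM. Lamp1 exceeded Lamp2 in each library, by 1.05 ± 0.26 on the log2 scale (2.08-fold). Cd63, a tetraspanin of late endosomes and lysosomes, was at 140, 247 and 190 TPM. Npc1, the membrane protein that exports cholesterol, averaged 94.0 ± 17.3 TPM, and Cln3, a membrane protein mutated in juvenile neuronal ceroid lipofuscinosis, 72.4 ± 13.7 TPM. The lowest was Mcoln1, the channel that releases calcium from the lysosome, at 46.9, 93.9 and 60.1 TPM. On the TPM scale replicate 1 was the lowest library for each of these genes but Cln3, which was lowest in replicate 3. On CPM adjusted with TMM factors, Cln3 was instead lowest in replicate 2 and highest in replicate 3.

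The proton pump has a membrane sector through which protons pass and a cytosolic sector that splits ATP. Its most abundant member was Tcirg1, the membrane subunit found in osteoclasts and macrophage lysosomes, at 360, 413 and 439 TPM. Atp6v0c, the proteolipid of the rotating ring, was at 154, 235 and 214 TPM. The accessory protein Atp6ap1 was at 131, 195 and 123 TPM. Of the cytosolic sector, Atp6v1b2 of the nucleotide-binding head averaged 100.3 ± 31.3 TPM, the catalytic Atp6v1a 67.4 ± 24.9 and the regulatory Atp6v1h 29.7 ± 5.25. Atp6v0d1 and Atp6v0d2 encode alternative forms of the subunit that links the sectors, the first made in most cells and the second in few, osteoclasts and macrophages among them. Atp6v0d1 was at 24.8, 29.5 and 23.9 TPM and Atp6v0d2 at 16.6, 39.0 and 16.7 TPM. The ubiquitous form was higher in replicates 1 and 3 and the other form in replicate 2, with a difference of 0.23 ± 0.55 on the log2 scale (two-sided exact sign-flip permutation test, p = 0.50), so these data do not order them.

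The remaining pump genes, from a list of 17 other subunits, completed both sectors. Of the 17, 11 were measured and 9 stood at 10 TPM or more. Atp6v0b, another proteolipid, was at 197 ± 32.6 TPM, the membrane subunit Atp6v0a1 at 189 ± 42.7 TPM and the accessory Atp6ap2 at 60.1 ± 11.6 TPM. Among alternative membrane subunits, the order by mean TPM was Tcirg1, Atp6v0a1, then Atp6v0a2 at 7.97 ± 1.59 TPM, and Atp6v0a4, known from kidney and inner ear, was listed at 0 in all libraries. Atp6v1e2, a testis form, was also listed at 0 in all libraries. Of the head subunits, Atp6v1b1, the kidney form, was at 0.25 ± 0.11 TPM beside 100.3 TPM for Atp6v1b2.

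**Figure D2:**
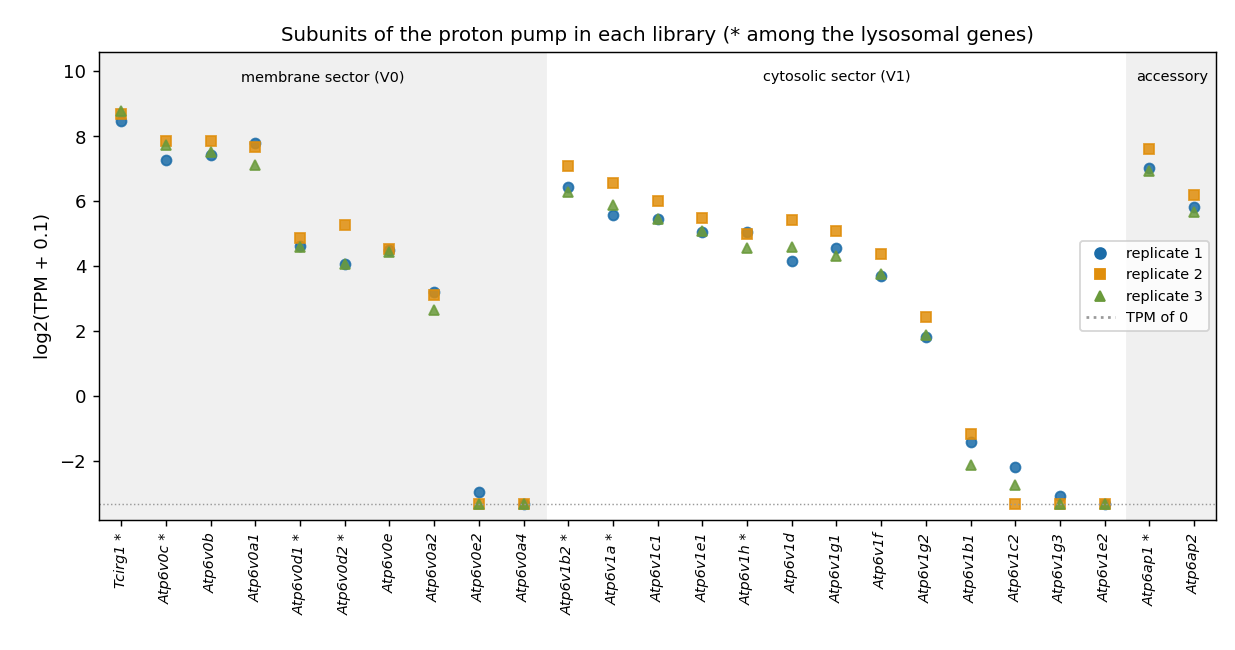
log2(TPM + 0.1) of 25 subunits of the proton pump in each of the 3 libraries (symbols), by sector and mean level. Stars mark the 8 that belong to the lysosomal genes, and the dotted line is a TPM of 0. Tcirg1 leads the membrane sector and Atp6v1b2 the cytosolic sector, and Atp6v0a4 and Atp6v1e2 lie on the dotted line.

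The 10 glycosidases, which trim sugars from glycoproteins, glycolipids and glycogen, spanned 19.8 to 219 TPM. Hexa, a subunit of beta-hexosaminidase, was at 177, 263 and 216 TPM. Man2b1, lysosomal alpha-mannosidase, was at 141, 177 and 175 TPM, and Gusb, beta-glucuronidase, at 127, 126 and 128 TPM. These 3 stood apart from the other 7, of which the highest was Naglu, an enzyme of heparan sulfate breakdown, at 41.9 ± 10.8 TPM. Idua, alpha-L-iduronidase, averaged 37.5 ± 10.2 TPM, Gla, alpha-galactosidase A, 36.0 ± 12.7 TPM, Gaa, the glycogen-degrading alpha-glucosidase, 33.7 ± 9.53 TPM, and Glb1, lysosomal beta-galactosidase, 24.5 ± 1.71 TPM. Neu1, the sialidase, was at 31.4, 33.2 and 31.9 TPM. The lowest was Manba, beta-mannosidase, at 20.8, 21.9 and 16.7 TPM. The places of Manba and Naglu depended on the table. In the second transcript table, with TPM rescaled to protein-coding genes, Manba averaged 120, above Neu1 at 97.5 and Glb1 at 70.3. Gla averaged 165 there, above Naglu at 128. The median of the group lay 0.94 ± 0.22 below the median of the remaining members on the log2 scale.

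The 4 sulfatases, which remove sulfate groups from glycans and sulfatides, had the lowest group median, 7.99 ± 0.81 TPM. Sgsh, heparan N-sulfatase, was at 13.4, 19.6 and 19.4 TPM. Arsa, which acts on sulfatide, was at 7.70, 9.40 and 10.4 TPM. Arsb, which acts on dermatan and chondroitin sulfate, was at 7.73, 6.82 and 4.30 TPM, and Ids, iduronate sulfatase, at 4.76, 8.41 and 4.14 TPM. Their median lay 3.19 ± 0.18 below that of the remaining members on the log2 scale, and by the same sign in each library. Antisense or neighbouring genes on the opposite strand overlap 39.9% of the exonic bases of Arsb, 21.6% of those of Sgsh, 18.8% of those of Arsa and, among the glycosidases, 12.8% of those of Hexa. The counting is not stated to use strand, so reads of these pairs may be shared. Expected counts of Arsb, Sgsh, Arsa and Hexa were not whole in every library, so some of their reads were divided with other genes.

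The 6 lipid hydrolases and lipid-handling proteins held the widest range, from Psap at 3663 ± 1035 TPM to Smpd1. Lipa, lysosomal acid lipase, was at 221, 290 and 172 TPM. Npc2, which hands cholesterol to Npc1, was at 114, 139 and 109 TPM, above Npc1 in each library by 0.36 ± 0.08 on the log2 scale. Asah1, acid ceramidase, averaged 95.7 ± 33.7 TPM and Galc, galactosylceramidase, 60.6 ± 18.1 TPM. Smpd1, acid sphingomyelinase, was at 4.58, 5.45 and 4.55 TPM. Smpd1 and Asah1 act one after the other in the breakdown of sphingomyelin to sphingosine, and Smpd1 had the lower level in every library.

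The 4 genes of protein and lipoprotein turnover had the highest group median, 309 ± 39.1 TPM, which lay 2.09 ± 0.04 above the remaining members on the log2 scale. Grn, the precursor of the granulins, was at 620, 805 and 769 TPM. Lgmn, an asparaginyl endopeptidase that processes other lysosomal proteases, was at 453, 559 and 533 TPM. Tpp1, a tripeptidyl peptidase, was at 82.4, 132 and 94.8 TPM, and Ppt1, which removes palmitate from proteins, at 31.9, 40.9 and 25.0 TPM. The first pair kept a ratio that hardly moved between libraries, Grn exceeding Lgmn by 0.50 ± 0.04 on the log2 scale.

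The 3 genes of mannose 6-phosphate sorting stood at intermediate levels. M6pr, the cation-dependent receptor for the tag, was at 63.5, 62.2 and 42.1 TPM. Igf2r, the cation-independent receptor, which also binds insulin-like growth factor, was at 42.8, 31.7 and 29.8 TPM. Gnptab, a subunit of the enzyme that starts the tag, was at 35.0, 25.9 and 17.4 TPM. Each of these genes was highest in replicate 1 on the TPM scale. M6pr exceeded Igf2r by 0.68 ± 0.26 on the log2 scale, an order that reversed in the second transcript table, where the difference was -0.28.

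The MiT factors were the lowest group after the sulfatases. Tfe3 was at 31.8, 31.3 and 25.2 TPM, Mitf at 22.3, 20.7 and 14.5 TPM and Tfeb at 11.4, 15.5 and 17.1 TPM. Tfe3 exceeded Mitf in each library by 0.63 ± 0.15 and Tfeb by 1.01 ± 0.46 on the log2 scale. In the second transcript table Tfe3 minus Mitf was 0.03, so the first of these differences was not seen there. Mitf exceeded Tfeb in replicates 1 and 2 and not in replicate 3. The place of Tfeb also depended on the table: in the second it was above both, with Tfe3 minus Tfeb at -0.50 and Mitf minus Tfeb at -0.53. The levels count all transcripts of a gene, also those annotated as keeping an intron, described below. Such transcripts held 76.0 ± 4.08% of the counts of Tfe3, 18.2 ± 5.56% of Mitf and 4.28 ± 2.34% of Tfeb. The order of the genes is therefore not an order of their coding transcripts. After adjustment over the 7 pairs of related members that were compared, the two-sided exact sign-flip permutation test gave 0.35 or 0.50 for each, and with 3 libraries it cannot give an unadjusted p below 0.25. The same bound holds for the differences of the role groups, which are given as sizes and spreads.

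Most members were lowest in the same library. On the log2 CPM scale, each library was set against the mean of the other libraries, and the median member deviated by -0.44 in replicate 1, 0.01 in replicate 2 and 0.33 in replicate 3. The median measured gene deviated by 0.02 in replicate 1 and by less than 0.01 in the others. The median of the protein-coding genes with at least the mean count of the lowest member deviated by -0.06, 0.01 and 0.06. Of the 45 members, 36 were lowest in replicate 1, against 34.7% of all 15876 measured genes and 42.8% of the 6682 protein-coding genes with at least the mean count of the lowest member. Replicate 3 was the highest library for 27, against 31.9% and 37.1%. Replicate 2 was highest for 13 (31.5% of all measured genes) and lowest for 5 (32.4%). Replicate 1 was highest for 5 (36.6%) and replicate 3 lowest for 4 (32.8%).

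Psap showed the widest step of any member below the others in replicate 1, with a deviation of -0.92, and its CPM was 8092, 12509 and 15460. Gaa deviated by -0.89, Mcoln1 by -0.86, Gla by -0.84 and Cd63 by -0.81 in that library. Naglu lay highest in replicate 3, with 101, 110 and 192 CPM and a deviation of 1.05, and Atp6v0d2 highest in replicate 2, with 51.8, 109 and 59.1 CPM and a deviation of 0.93. No library exceeded each of the others by 2-fold or more for any member, as replicates 1, 2 and 3 did for 4.86, 0.857 and 1.55% of all measured genes. None fell 2-fold or more under each of the others, as they did for 3.22, 2.22 and 1.39%. These shares cover all measured genes. They were not taken over the protein-coding genes of at least the lowest member's count, whose median spread, given below, was smaller.

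The roles did not all move alike. Replicate 1 was the lowest library for 6 of 7 membrane proteins, 7 of 8 pump subunits, 9 of 10 glycosidases, 3 of 4 sulfatases, all 6 lipid hydrolases and lipid-handling proteins and all 4 genes of protein turnover. All 3 genes of mannose 6-phosphate sorting were instead highest in replicate 1. There Gnptab deviated by 0.67 from the mean of the other libraries, Igf2r by 0.33 and M6pr by 0.17. Arsb, with a deviation of 0.35, and Tfe3, with 0.16, were the other members highest there. Tfeb was lowest in replicate 1 (-0.73), as most enzymes were, while Mitf deviated by 0.07. Replicate 3 was highest for 9 of 10 glycosidases, but replicate 2 for 5 of 8 pump subunits.

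**Figure D3:**
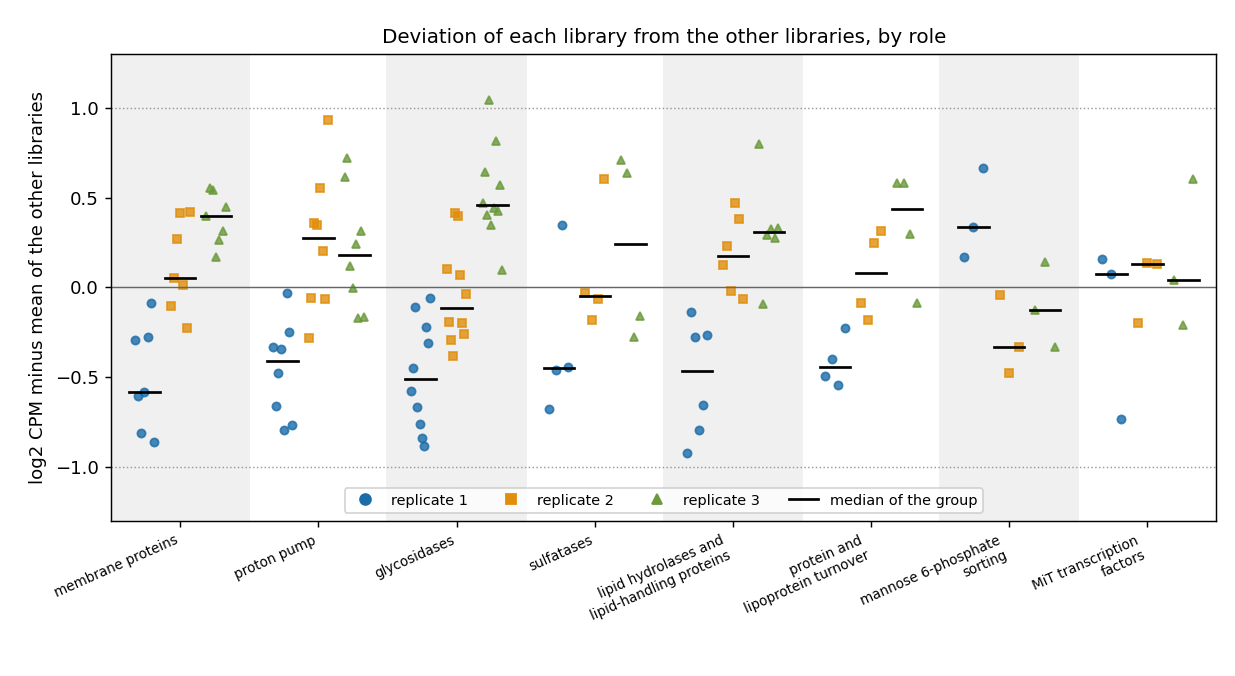
Difference in log2 CPM of each library from the mean of the other libraries for each lysosomal gene, by role. Symbols are genes, coloured by library, black lines are group medians, and dotted lines mark a difference of 1, that is 2-fold. Replicate 1 lies below 0 for every gene of the membrane, pump, glycosidase, lipid and protein groups, and above 0 for the 3 sorting genes.

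Other measures moved with the libraries too. The macrophage markers had a median deviation of -0.18, -0.25 and 0.49. They did not all move alike: Itgam deviated by 0.93, -0.67 and -0.27 and Mertk by -0.99, 0.50 and 0.49. The cell cycle genes Mki67, Top2a, Mcm3, Mcm6 and Pcna, a list added with earlier results known, had a summed level of 132, 50.8 and 44.6 TPM. Their median deviation was 1.29, -0.91 and -0.38, opposite in sign to the marker median in replicates 1 and 3. The part of the markers or of the cell cycle genes in the pattern of the lysosomal genes was not tested. The median SD of log2 CPM over the libraries was 0.35 for the members, 0.32 for all measured genes and 0.24 for the protein-coding genes of at least the lowest member's count.

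Other lysosomal genes had the same order of libraries in their medians. Of 37 further enzymes and membrane proteins all were measured and 32 stood at 10 TPM or more. Laptm5, a lysosomal membrane protein of blood cells, was at 298 ± 48.4 TPM and Cd68, a macrophage relative of the Lamp proteins, at 258 ± 22.0 TPM. The lowest were Gnptg, the partner of Gnptab, at 6.59 ± 0.30 TPM and Acp5, the tartrate-resistant phosphatase of osteoclasts, at 0.70 ± 0.13 TPM. Their median deviation was -0.31, -0.01 and 0.34. In replicate 1 the endolysosomal cation channels Tpcn1 and Mcoln3 were the 2 genes of this list that lay 2-fold or more under each of the others, with deviations of -1.15 and -1.14, beside 3.22% of all measured genes.

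A list of 18 genes, 17 that control MiT factors at the lysosomal surface and Tfec, itself a further MiT family member, was measured in full, with 11 genes at 10 TPM or more. The 17 hold the Rag GTPases and their Lamtor anchor, Mtor and its partner Rptor, the folliculin complex and calcineurin. Between them these govern whether the factors stay in the cytosol. Fnip2, a partner of folliculin, was at 84.4, 231 and 165 TPM, Flcn, folliculin itself, at 26.3, 60.0 and 49.5 TPM, and the GTPase Rragc at 29.3, 52.8 and 40.1 TPM. All 3 were lowest in replicate 1, with deviations of -1.23, -1.09 and -0.81 on the log2 CPM scale. Others of the 18 went the other way in replicate 1, among them Rptor with 0.69 and Lamtor4 with 0.49. The lowest by level were Lamtor2 at 5.35 ± 0.58 TPM and Rragb at 0.73 ± 0.48 TPM. Of the 18, Fnip2 and the GTPase Rragd lay 2-fold or more under each of the other libraries there, beside 3.22% of all measured genes, and the list's median deviation was -0.17, 0.21 and 0.14.

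The transcript tables split each gene's counts among annotated transcripts, some of them of the type retained intron, which keep an intron that the coding transcript removes. Such a transcript is annotated for 32 of the 45 members. Its median share of the gene's counts was 12.8% over those 32, and 19.3% over the 7228 measured genes with one. In 5 of the 32 members the share was at least 50%, no larger a part than the 17.3% of those genes. Tfe3 had 76.7, 71.6 and 79.6%, Atp6v1h 67.8, 83.2 and 68.5% and Neu1 67.3, 78.2 and 66.9%. Arsa had 59.4, 62.3 and 62.1% and Mcoln1 52.1, 54.8 and 50.4%. No library of these 5 fell under 50%. At the other end, Gnptab, Lamp1 and Lgmn had 0.25 ± 0.08, 0.98 ± 0.15 and 1.19 ± 0.36%, so genes of very different level carried little of it. Reads of a precursor not yet spliced fall in the same intervals and cannot be told apart from a retained intron here.

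**Figure D4:**
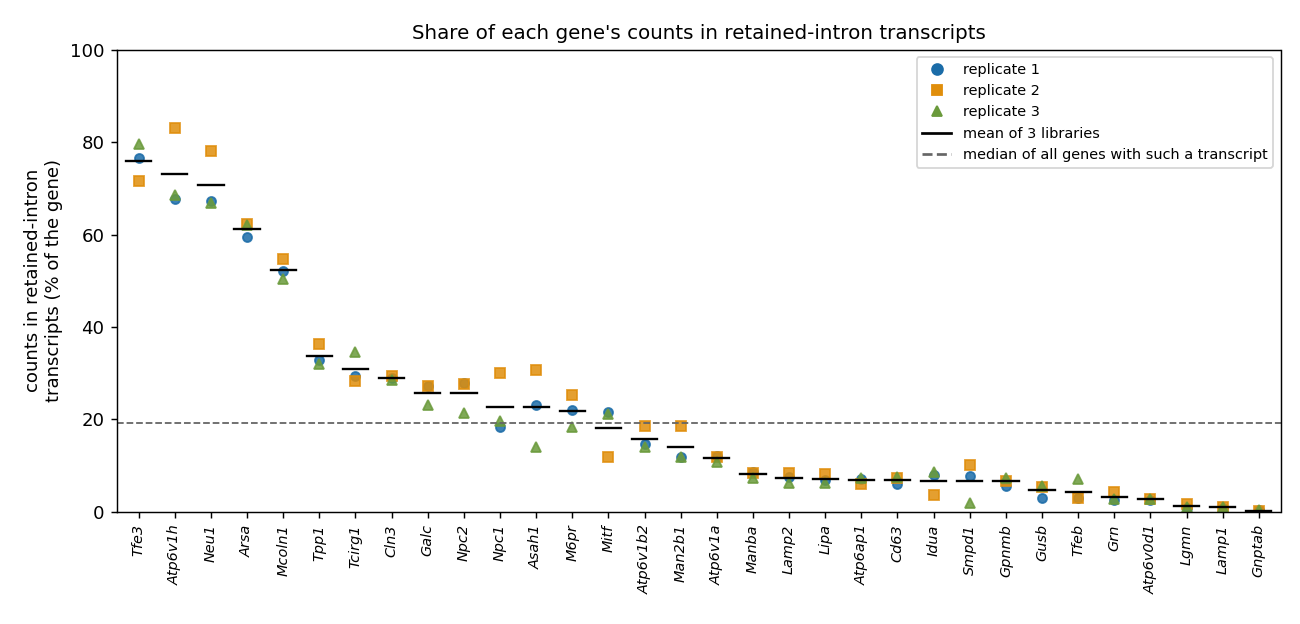
Percent of each gene's expected counts in transcripts annotated as retained intron, for the 32 lysosomal genes that have one, ordered by mean. Symbols are the 3 libraries, black lines their mean, and the dashed line the median over all measured genes with such a transcript (19.3%). Tfe3, Atp6v1h, Neu1, Arsa and Mcoln1 lie above 50% in every library, and most of the others below the dashed line.

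In the annotation (GENCODE M21, build GRCm38), the leading retained-intron transcript of 4 of these genes spans a whole intron of a coding transcript. Neu1-202 covers intron 3 of 5 of Neu1-201 (chr17:34932829-34934002, 1174 bases) and held 70.7 ± 6.33% of the counts of Neu1. Arsa-201 covers intron 4 of 8 of Arsa-202 (chr15:89474710-89474786, 77 bases) and held 61.3 ± 1.60%. Atp6v1h-206 covers intron 4 of 13 of Atp6v1h-201 (chr1:5093453-5095614, 2162 bases) and held 43.5 ± 10.3%. Tfe3-208 covers introns 4 and 6 of 7 of Tfe3-205, the first at chrX:7769548-7770773 (1226 bases), and held 39.3 ± 4.68%. The borders of these introns are printed from the transcript sequences of that annotation, 10 exon and 20 intron bases each. The splice dinucleotides, in capitals, show that these annotated introns are of the common GT to AG kind. The borders do not show whether the introns were kept in these RNAs.
Neu1 intron 3 donor: aggcattcagGTttcaccctgtggatagga
Neu1 intron 3 acceptor: ccacttcctcttcttaacAGaaacagcggg
Arsa intron 4 donor: cgcttcccacGTgagtgaccctggccccgc
Arsa intron 4 acceptor: actccagtctctgcccccAGcacactcact
Atp6v1h intron 4 donor: tatgctgcagGTgagtgtgatatactaacc
Atp6v1h intron 4 acceptor: tgtgcttggttttcttttAGgaaaatcacc
Tfe3 intron 4 donor: gagatctccgGTaagtgttagggacttggc
Tfe3 intron 4 acceptor: ccaccctcactctcttccAGaaaccgaggc
Mcoln1-205, at 39.5 ± 4.47% of the counts of Mcoln1, spans no whole intron of the leading coding transcript. Each of the 5 genes had a coding transcript as well: Neu1-201 held 29.2 ± 6.40%, Arsa-202 37.6 ± 2.12%, Mcoln1-201 43.8 ± 3.07%, Atp6v1h-201 22.8 ± 5.77% and Tfe3-205 13.4 ± 8.35%. In the second table Tfe3-205 held 2.31%.

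A protein-coding transcript led in 41 members and a retained-intron transcript in the other 4, Tfe3, Atp6v1h, Neu1 and Arsa. Lamp2 makes proteins with different tails by alternative last exons. Of its counts, Lamp2-202 held 62.1 ± 1.78% and Lamp2-201 17.7 ± 1.05%. Psap was divided between Psap-202, at 54.6 ± 6.49%, and Psap-203, at 42.4 ± 6.26%. In Atp6v0c the coding Atp6v0c-201 held 57.5 ± 6.04% and the processed transcript Atp6v0c-205 42.1 ± 5.77%, an order that the second table turned round, with 28.3 and 67.4%. Mitf, which has several promoters, was led by Mitf-202 at 77.5 ± 6.64%, or 51.7% in the second table. Tfeb was spread over 5 coding transcripts of 11.1 to 21.6%, of which Tfeb-212 held 16.8% and Tfeb-201 11.1%. The second table gave 0.22% and 5.82% for these, so the split of Tfeb depended on the table.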

How the data were processed

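Per the labels, nuclear RNA of 3 biological replicates was sequenced, with a size range of 250 to 400 nucleotides. The gene and transcript tables give expected counts and TPM that the authors deposited; their columns are named as in RSEM output. The bounds of the TPM credibility interval, also deposited by the authors, were treated as a score and used only for half-widths. Per the file headers, a second transcript table has TPM and estimated counts under the names used by kallisto. Deposited notes name mm10 and GENCODE M21. The versions of these programs were not given in the sources used here.

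The members, role groups and other lists were chosen with earlier results of these data known. Rows that name no gene held 1.24, 0.372 and 0.064% of counts and were left out. Expected counts were rounded, genes under a mean of 10 were dropped, and edgeR 4.0.16 in R 4.3.3 gave TMM factors and log2 CPM (prior count 2). DESeq2 1.42.0 size factors were an alternative. Other steps used Python 3.11.15 with pandas 2.3.3. Functions were tested on simulated data. TPM differences used a pseudocount of 0.1, which understates differences of low genes. A library difference was called at 2-fold against both others, without a test, since 1 library stood on one side. Values per library were printed for the 3 highest members and the lowest of each role group, all members of groups of up to 4, and the 5 highest retained-intron shares; of other lists, the 3 highest and 2 lowest genes, of which 1 is not reported here. Other values were chosen after they were seen. Expected counts were whole (within 0.005) in 31 members and divided with other genes in 14. Of the exonic bases, 1 member shares some with a gene on the same strand and 13 with one on the opposite strand. A chi-square comparison of counts gave at least 90.2 per degree of freedom for each pair of libraries, so none was a copy of another.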

Additional observations from a re-analysis of the deposited data

How the results depend on the processing

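The median member stood at 28.7 TPM in the second transcript table and at 217 TPM when TPM was rescaled to protein-coding genes. Protein-coding genes took only 14.1, 27.9 and 3.84% of TPM in the second table, so unscaled TPM of the tables is not comparable. With both rescaled to protein-coding genes, the median ratio of the second table to the first was 0.86, and 43 of the 45 members agreed within 1.5 times. In the second table the members held 2.92% of counts, the median member of replicate 2 deviated by -0.0798 in place of 0.01, and 1 member, Naglu, exceeded each of the others 2-fold or more in replicate 3. There the differences Tfe3 minus Tfeb (-0.50), Mitf minus Tfeb (-0.53) and M6pr minus Igf2r (-0.28) had the opposite sign; the cause was not tested. The difference from the median protein-coding gene was 6.57 on the log2 scale with no filter on counts. With library totals in place of TMM factors, the median of all measured genes shifted to 0.16, 0.04 and -0.18, the members' medians were -0.30, 0.05 and 0.15, and 29 members were lowest in replicate 1 and 23 highest in replicate 3. In the second table these counts were 36 and 35; these 2 counts were put under the alternatives after seeing the data. No role group or pair changed sign when any 1 library was left out, and the share of counts ranged from 3.25 to 3.85%. No paired analysis was possible because there is 1 group. Depth limits the lowest members most: a count of 0 allows up to 3 counts, which are 0.143 to 0.173 CPM, and floors cover counting error only.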
